A study of Mus musculus with 6 samples.

Results

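The 44 genes described here encode nuclear receptors and were picked out by gene symbol, with no measured value in the rule. All 44 were represented among the 20678 genes measured, by 109 probe sets in all, and 27 of them had several. Each gene was represented by 1 probe set, the one brightest on average in the 4 fraction arrays. The source was embryonic liver of wild type C57Bl6 mice at E12.5, and each of the 6 groups was measured on 1 Affymetrix Mouse Genome 430 2.0 array. These groups comprised cells labelled as liver, cells carrying the surface protein ALCAM (ALCAM+), and 4 fractions of such cells. Those fractions were ALCAM+ PDPN+, ALCAM+ PDPN-, ALCAM+ ITGA8+ and ALCAM+ ITGA8- cells, written below as PDPN+, PDPN-, ITGA8+ and ITGA8-. ALCAM is an adhesion molecule, PDPN (podoplanin) a glycoprotein of mesothelium, and ITGA8 the integrin alpha 8 subunit that the series names for a hepatic stellate cell population. All groups carried the same genotype and age, and the labels give no number of embryos per sample. With 1 array per group no spread between samples exists, so no test was made and each difference compares 2 arrays. In bulk RNA, fewer cells of a type and less RNA per cell cannot be told apart.

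Nuclear receptors are transcription factors, most of which bind DNA through zinc fingers and are switched by small lipophilic ligands such as retinoic acid, bile acids, sterols or steroid hormones. Many pair with a retinoid X receptor on repeated hexamers related to AGGTCA. In liver, the bile acid receptor FXR (Nr1h4), the xenobiotic receptors PXR (Nr1i2) and CAR (Nr1i3), PPAR alpha (Ppara) and LRH-1 (Nr5a2) are known from hepatocytes, where they set bile acid, drug and fatty acid metabolism. Retinoic acid receptors and COUP-TF factors (Nr2f1, Nr2f2) are known from mesenchyme and mesothelium, and stellate cells store vitamin A.

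Promoter sequence bears on these genes because some receptors are known targets of receptors. RefSeq start sites of build GRCm38.p6 were listed for 40 of the 44 genes, in 60 windows. The 250 bases before the start are shown for Rarb, a retinoic acid receptor gene that retinoic acid is known to induce, and for Nr1h4 and Nr0b2, a bile acid receptor and its known target SHP, which had the lowest differences in PDPN+ minus PDPN- below. Capitals mark AGGTCA on either strand, or the repeated hexamer of GTTCACNNNNNGTTCAC. Rarb lies at chr14:16575477-16575726 on the minus strand, Nr1h4 at chr10:89506659-89506908 on the minus strand, and Nr0b2 at chr4:133553126-133553375 on the plus strand.
Rarb: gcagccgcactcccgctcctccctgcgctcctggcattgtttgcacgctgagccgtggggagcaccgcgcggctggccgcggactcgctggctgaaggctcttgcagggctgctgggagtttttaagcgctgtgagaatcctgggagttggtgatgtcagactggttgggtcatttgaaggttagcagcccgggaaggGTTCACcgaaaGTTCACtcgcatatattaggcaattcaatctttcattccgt
Nr1h4: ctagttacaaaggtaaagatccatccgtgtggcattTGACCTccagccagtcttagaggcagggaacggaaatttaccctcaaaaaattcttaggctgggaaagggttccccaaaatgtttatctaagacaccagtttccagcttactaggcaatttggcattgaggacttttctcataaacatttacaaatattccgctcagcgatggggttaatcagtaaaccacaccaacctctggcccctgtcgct
Nr0b2: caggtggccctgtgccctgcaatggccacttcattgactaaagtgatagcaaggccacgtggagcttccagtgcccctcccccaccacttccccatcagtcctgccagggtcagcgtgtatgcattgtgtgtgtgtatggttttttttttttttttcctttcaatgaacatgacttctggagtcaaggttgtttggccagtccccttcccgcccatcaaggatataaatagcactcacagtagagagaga
The Rarb window held GTTCACNNNNNGTTCAC at bases -52 to -36 from the start, a direct repeat with a spacer of 5 bases, the known form of a retinoic acid response element. Searched on both strands, that motif was in 2 of 32851 windows, or 0.00609%, and in 1 of the 60 windows of the members. Both Rarb and the motif were picked from what is known of retinoic acid response, so this hit is no test. The Nr1h4 window held AGGTCA at bases -214 to -209, on the other strand and so printed in reverse complement. This hexamer, which longer motifs can contain, was in 14.02% of all windows and in 11 of the 60 windows of the members. The spaced repeat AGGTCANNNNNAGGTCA (0.00913% of windows) and the inverted repeat AGGTCANTGACCT (0.00609%) were in none of the 60. None of the motifs was found in the Nr0b2 window, which says only that these letters are not there.

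The arrays fell into 2 sets of different scale. Median probe set intensity was 42 in liver and 66 in ALCAM+, and 123 to 200 in the 4 fractions, so differences were taken within a set. Low values were set aside with a floor at intensity 109.0, the median over every probe set and array, and a gene entered a pair where its higher array exceeded it. The sort markers followed the labels, with Pdpn at 7746 in PDPN+ and 117 in PDPN-, Itga8 at 4354 in ITGA8+ and 871 in ITGA8-, and Alcam at 13425 in ALCAM+ and 3207 in liver. The PDPN- array had Spearman correlations over genes of 0.895 to 0.922 with the other sorted arrays, against 0.927 to 0.970 among those others. The hepatoblast gene Alb was at 18532 to 25926 in every fraction.

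Of the 44 members 35 exceeded the floor in at least 1 array. The other 9 did not: Rara, Thrb, Pparg, Nr2e3, Esr2, Esrrb, Pgr, Nr4a3 and Nr5a1, whose highest value anywhere was 101, of Pgr in ITGA8-. They include the progesterone receptor and the gonadal and adrenal factor SF-1 (Nr5a1). Their signals were at or below this floor, which does not show that the genes are silent. The floor pools both array scales, and the median of the liver and ALCAM+ arrays alone was 52.0. Rara (56 in liver and 60 in ALCAM+) and Nr4a3 (62 and 96) exceeded that lower value. Levels of different genes come from different probe sets and are not compared with each other.

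**Figure D1:**
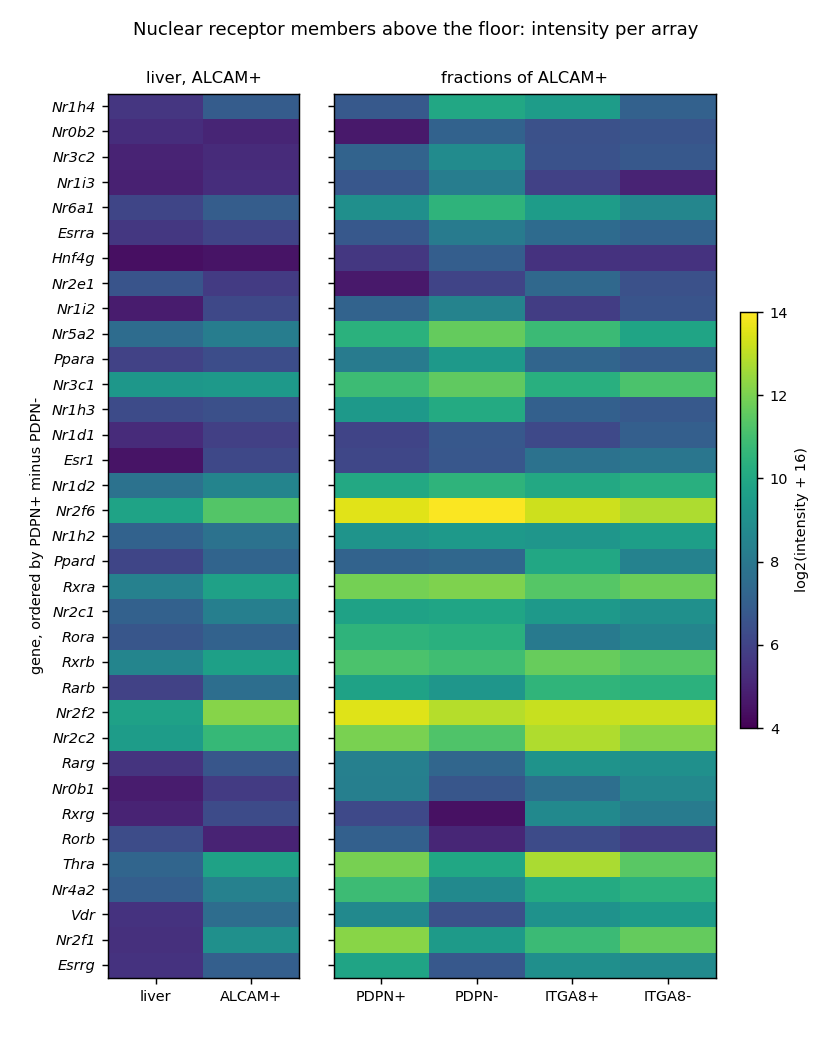
Intensity of the 35 members above the floor, as log2(intensity + 16) by colour, in the liver and ALCAM+ arrays (left) and the 4 fraction arrays (right); the 2 panels are on different array scales. Genes are ordered by PDPN+ minus PDPN-, with Nr1h4 at the top (95 against 1003) and Esrrg at the bottom (907 against 91).

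The PDPN+ and PDPN- arrays were set side by side to see which receptors go with podoplanin among ALCAM+ cells. The bile acid receptor gene Nr1h4, its partner Nr0b2 and the xenobiotic receptor genes Nr1i2 and Nr1i3 were higher in PDPN- cells. Of the 5 receptors of sterols, bile acids and foreign compounds, 3 were at least 2-fold higher there and 0 in PDPN+. The estrogen-related receptor gene Esrrg, the COUP-TFI gene Nr2f1, the vitamin D receptor gene Vdr, the orphan receptor gene Nr4a2 and the thyroid hormone receptor gene Thra were higher in PDPN+ cells. Of the 31 members above the floor, 8 were at least 2-fold higher in PDPN+, or 25.8%, where 19.9% of all 13437 genes were. Toward PDPN- they numbered 10, or 32.3%, where 7.93% of all genes were. The share toward PDPN+ was near that of all genes and the share toward PDPN- was above it. The median absolute difference was 1.25 on the log2 scale over these members and 0.52 over all genes, while the signed medians were -0.15 and 0.04. The members were thus spread to both sides.

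Among the receptors of bile acids, sterols and foreign compounds, Nr1h4 stood out. Its intensity was 32 in liver and 103 in ALCAM+, then 95 in PDPN+ against 1003 in PDPN- and 720 in ITGA8+ against 120 in ITGA8-. It was thus high in 2 of the 4 fractions, 1 of each sort, and near the floor in the other two. The difference PDPN+ minus PDPN- was -3.20 on the log2 scale, 9.18-fold lower in PDPN+. Nr0b2 encodes SHP, a receptor without a DNA-binding domain that represses bile acid synthesis. Its values were 24 in liver and 17 in ALCAM+, then 10 in PDPN+ against 124 in PDPN- and 74 in ITGA8+ against 80 in ITGA8-, so only the PDPN- array passed the floor, and by little. The difference was -2.43, or 5.38-fold on the scale with 16 added, and its size depends on that number.

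The xenobiotic receptors were also higher in PDPN-. Nr1i2 (PXR), a sensor of drugs and bile acids, was at 11 in liver and 55 in ALCAM+, then 129 in PDPN+ against 341 in PDPN- and 40 in ITGA8+ against 80 in ITGA8-. Its difference was -1.30, and its other probe set gave -1.66. Nr1i3 (CAR), which induces cytochrome P450 genes, was at 14 in liver and 24 in ALCAM+, then 88 in PDPN+ against 283 in PDPN- and 45 in ITGA8+ against 16 in ITGA8-, a difference of -1.52. Both were highest in PDPN-, with PDPN+ next and both ITGA8 sort arrays below the floor. For Nr1i3 the PDPN+ array was below the floor as well, so this gene passed it only in PDPN-. The liver X receptors sense oxysterols. Nr1h3 (LXR alpha) was at 670 in PDPN+ and 1094 in PDPN- (-0.69), and Nr1h2 (LXR beta) at 567 and 654 (-0.20), both within 2-fold.

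Ppara, the fatty acid sensor that drives hepatic fatty acid oxidation, was at 47 in liver and 67 in ALCAM+, then 270 in PDPN+ against 655 in PDPN- and 138 in ITGA8+ against 103 in ITGA8-. The difference was -1.23, and both other probe sets above the floor were past 2-fold as well (-1.61 and -1.15). Nr5a2, whose product LRH-1 acts on bile acid and steroid genes, was at 169 in liver and 288 in ALCAM+, then 1327 in PDPN+ against 3182 in PDPN- and 1773 in ITGA8+ against 890 in ITGA8-. It was above the floor in every array, highest in PDPN- and lowest of the fractions in ITGA8-. Its difference was -1.25, and of its 2 other probe sets above the floor 1 was at the 2-fold line and the other gave -0.64. Nr6a1 encodes GCNF, an orphan receptor known from germ and embryonic stem cells. It was at 53 in liver and 107 in ALCAM+, then 486 in PDPN+ against 1419 in PDPN- and 724 in ITGA8+ against 374 in ITGA8-, a difference of -1.52, and of its 2 other probe sets above the floor 1 gave -1.56 and the other 0.63.

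Nr3c2, the mineralocorticoid receptor gene, was at 16 in liver and 22 in ALCAM+, then 131 in PDPN+ against 432 in PDPN- and 75 in ITGA8+ against 93 in ITGA8-, 3.05-fold higher in PDPN-. Esrra, an orphan receptor of mitochondrial genes, was at 33 in liver and 50 in ALCAM+, then 93 in PDPN+ against 270 in PDPN- and 165 in ITGA8+ against 126 in ITGA8-, a difference of -1.39 with -0.66 in its other probe set. Hnf4g, a paralog of Hnf4a, was at 5 in liver and 7 in ALCAM+, then 33 in PDPN+ against 111 in PDPN- and 28 in ITGA8+ against 28 in ITGA8-, a difference of -1.37 that rests on 1 value at the floor. For all 10 members that were 2-fold higher in PDPN- than PDPN+, PDPN- also had the highest value of the 4 fractions. Picking them for a high PDPN- value favours that outcome, and the share among all genes so picked was not computed. Counting every member above the floor in a fraction, 16 of 35, or 45.7%, had their highest fraction value in PDPN-, against 26.2% of all genes above the floor.

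Nr2f1 led the members known from mesenchyme. COUP-TFI, its product, is a repressor and activator of developmental genes. Intensity was 26 in liver and 497 in ALCAM+, then 4701 in PDPN+ against 685 in PDPN- and 1784 in ITGA8+ against 3133 in ITGA8-. PDPN- was the lowest fraction, and the difference of 2.75 was a 6.73-fold higher value in PDPN+. Its paralog Nr2f2 (COUP-TFII), a factor of venous endothelium and mesenchyme, was at 823 in liver and 4615 in ALCAM+, then 11640 in PDPN+ against 7471 in PDPN- and 9165 in ITGA8+ against 9338 in ITGA8-. Nr2f2 was bright in every fraction, with a difference of 0.64 in this probe set. Its 4 other probe sets above the floor, all dimmer, were past 2-fold toward PDPN+ (1.58, 1.76, 1.31 and 1.28), so whether Nr2f2 counts as different depends on the probe set. Nr2f6, also of the COUP family, was at 886 in liver and 2580 in ALCAM+, then 12068 in PDPN+ against 15851 in PDPN- and 9753 in ITGA8+ against 7015 in ITGA8-, with a difference of -0.39.

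Esrrg, an orphan receptor of oxidative metabolism, was at 28 in liver and 114 in ALCAM+, then 907 in PDPN+ against 91 in PDPN- and 493 in ITGA8+ against 423 in ITGA8-. Its difference of 3.11, or 8.63-fold, was the largest toward PDPN+ among the members. Vdr was at 28 in liver and 176 in ALCAM+, then 415 in PDPN+ against 73 in PDPN- and 527 in ITGA8+ against 703 in ITGA8-, with PDPN- below the floor and the other 3 fractions above it, a difference of 2.28. Its other probe set gave 3.34. The vitamin D receptor is known in stellate cells as a brake on fibrogenic genes. Nr0b1 (DAX1), a repressor of SF-1 known from adrenal and gonad, was at 11 in liver and 38 in ALCAM+, then 300 in PDPN+ against 86 in PDPN- and 184 in ITGA8+ against 389 in ITGA8-, a difference of 1.63.

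Nr4a2 (NURR1) belongs to a subfamily induced as immediate early genes. It was at 111 in liver and 319 in ALCAM+, then 1824 in PDPN+ against 412 in PDPN- and 1095 in ITGA8+ against 1350 in ITGA8-, so PDPN- was again the lowest fraction. The difference was 2.10, while its 4 other probe sets above the floor ranged from -2.26 to 1.74. Its relative Nr4a1, which is not among the 44 genes, was at 2139 in PDPN+ and 141 in PDPN-. Rorb, an orphan receptor of neurons, was at 65 in liver and 16 in ALCAM+, then 119 in PDPN+ against 18 in PDPN- and 63 in ITGA8+ against 41 in ITGA8-. It passed the floor only in PDPN+, with a difference of 1.99.

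Thra encodes the thyroid hormone receptor alpha and lies antisense to the end of Nr1d1, so signals of probes in the overlap are uncertain. The probe set used was at 139 in liver and 846 in ALCAM+, then 3960 in PDPN+ against 965 in PDPN- and 6789 in ITGA8+ against 2793 in ITGA8-. It was highest in ITGA8+ and lowest of the fractions in PDPN-, a difference of 2.02 for PDPN+ minus PDPN-. The 2 other probe sets gave 1.58 and 0.56, in the same direction.

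Markers of several cell types differed in this pair too. Summed intensities, here and for the other pairs below, cover every measured gene of a list, also those at or below the floor. All 11 mesothelial markers were 2-fold higher in PDPN+ (summed intensity 56851 against 1457), as were 8 of 8 macrophage markers (30224 against 368), 8 of 8 megakaryocyte markers (27846 against 175) and 6 of the 6 endothelial markers above the floor (4765 against 516). In PDPN- the macrophage markers above the floor numbered 1 of 8 and the megakaryocyte markers 0 of 8, and none was at exactly 0. Of 11 hepatoblast markers 3 were 2-fold higher in PDPN- (median -0.43, summed intensity 203307 against 161879), namely Foxa2, Foxa1 and Apob. Of 8 erythroid markers 2 were 2-fold higher in PDPN+ (summed intensity 7119 against 3720) and 0 in PDPN-. The part of these cell types in the receptor differences was not tested. With the median of a gene's probe sets, Nr6a1 (0.53) and Rarg (-0.33) changed sign, and Esrrg (0.58), Nr4a2 (0.91) and Thra (0.56) came within 2-fold. Rorb and Hnf4g were then at 0.0, and Nr5a2 (-1.0) fell just short of 2-fold. Rorb, Hnf4g and Nr0b2 were no longer counted with a higher floor (168.0).

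**Figure D2:**
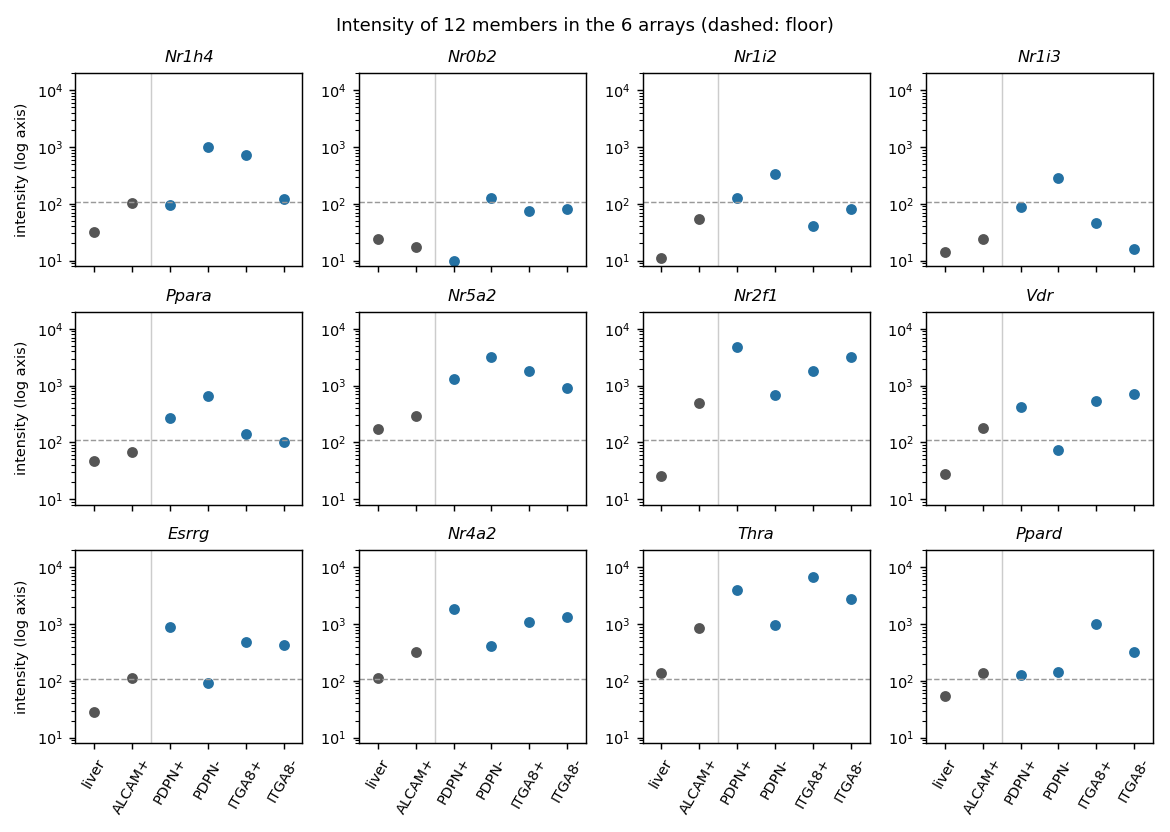
Intensity of 12 members in each array, on a log axis, with the floor dashed; liver and ALCAM+ (grey) are on another array scale than the fractions (blue). Nr1h4 is high in PDPN- and ITGA8+ (1003 and 720), while Nr2f1, Vdr, Esrrg, Nr4a2 and Thra have PDPN- as their lowest fraction.

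Target genes of these receptors were taken from lists of known targets. Of the 7 bile acid receptor targets above the floor, 6 were 2-fold higher in PDPN-, where 7.93% of all genes were, and 0 in PDPN+. The list median was -1.34 against 0.04 over all genes. The exception, Abcb11, was at 510 in PDPN+ and 789 in PDPN- (-0.61), and Slc51a, Slc51b, Fgf15 and Cyp8b1 were below the floor. Slc27a5 and Baat, the enzymes that conjugate bile acids, had differences of -1.67 and -1.45. Cyp7a1, the rate-limiting enzyme of bile acid synthesis, was at 47 in PDPN+ and 180 in PDPN- (-1.64), and the phospholipid exporter Abcb4 at 391 and 1011 (-1.34). Cyp7a1 is a gene that FXR and SHP are known to repress, so the members of this list do not share a known direction of control. Of 5 xenobiotic receptor targets, 3 were higher in PDPN-, among them Cyp3a13 (-1.25) and the bile pigment exporter Abcc2 (-1.26). Toward PDPN+ there was 1, the exporter Abcc3 (2.40), where 19.9% of all genes were higher.

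The next 3 lists hold few genes, and their counts stand beside 19.9% of all genes higher in PDPN+ and 7.93% in PDPN-. Of 10 PPAR targets above the floor 3 were higher in PDPN-, among them Pdk4 (-1.37) and the peroxisomal enzyme Ehhadh (-1.22). The fatty acid transporter Cd36, also a macrophage gene, was at 338 in PDPN+ and 4 in PDPN- (4.15). Liver X receptor targets had 3 of 9 higher in PDPN+ and 0 in PDPN-, with the cholesterol exporter Abcg1 at 3.76, Mylip at 1.25 and Abcg5 at the 2-fold line, while the list median was -0.47. The glucocorticoid receptor gene itself, Nr3c1, was at 605 in liver and 652 in ALCAM+, then 1842 in PDPN+ against 3000 in PDPN- and 1247 in ITGA8+ against 2308 in ITGA8- (-0.70). Of its 7 targets above the floor 3 were higher in PDPN+, led by Dusp1 (1.57), and 1 in PDPN-, Tsc22d3 (-1.34).

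Retinoic acid genes were higher in PDPN+. Of 13 genes of retinoic acid synthesis, transport and response above the floor, 8 were 2-fold higher in PDPN+ and 0 in PDPN-, with a median of 1.65. Among all genes 19.9% were 2-fold higher in PDPN+ and 7.93% in PDPN-. Aldh1a2, which makes retinoic acid, was at 2082 against 42 (5.18), Aldh1a1 at 1355 against 66 (4.06) and the binding protein gene Crabp2 at 1658 against 180 (3.09). The receptors themselves differed less. Rarb was at 46 in liver and 180 in ALCAM+, then 841 in PDPN+ against 598 in PDPN- and 1482 in ITGA8+ against 1376 in ITGA8-, so both ITGA8 sort arrays exceeded both PDPN sort arrays, and PDPN+ minus PDPN- was 0.48. Rarg was at 29 in liver and 87 in ALCAM+, then 308 in PDPN+ against 142 in PDPN- and 553 in ITGA8+ against 498 in ITGA8-, just past 2-fold at 1.04.

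The obligate partners were more even. Rxra was at 317 in liver and 833 in ALCAM+, then 3816 in PDPN+ against 4219 in PDPN- and 2592 in ITGA8+ against 3466 in ITGA8- (-0.14 for PDPN+ minus PDPN-). Rxrb was at 356 in liver and 816 in ALCAM+, then 2267 in PDPN+ against 1938 in PDPN- and 3285 in ITGA8+ against 2633 in ITGA8- (0.22). Rxrg was at 57 and 6 in the PDPN sort, below the floor, and at 409 in ITGA8+ and 270 in ITGA8-. Coregulators, which receptors recruit to activate or silence genes, were also even, with 1 of 19 higher in PDPN+, Ncoa7 (1.11), and 0 in PDPN-. Among all genes these shares were 19.9% and 7.93%.

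**Figure D3:**
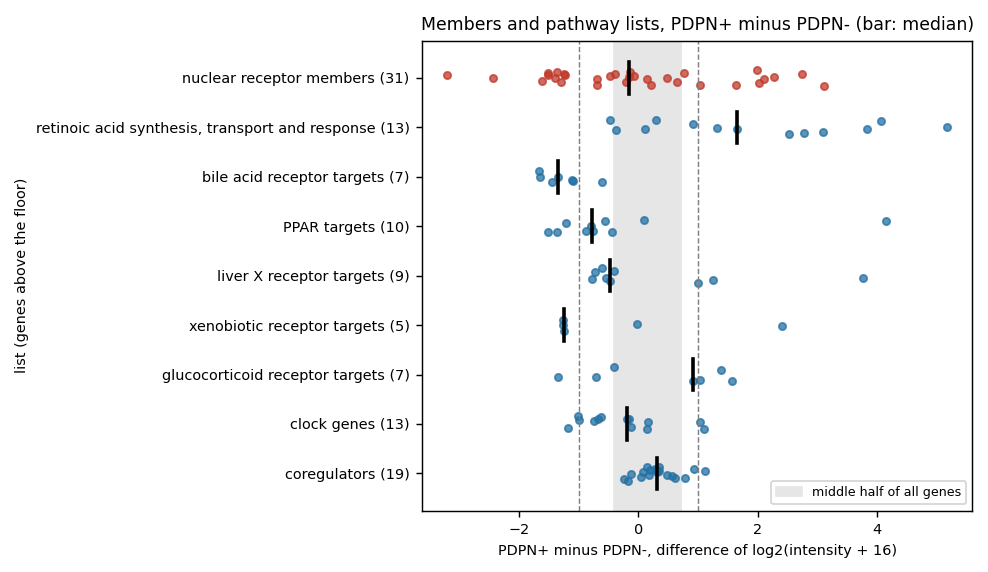
Differences PDPN+ minus PDPN- of log2(intensity + 16) for members above the floor (red) and for genes of 8 pathway lists (blue), with each list's median as a bar and the middle part of all genes shaded (lower to upper quartile, -0.40 to 0.71). The retinoic acid list has its median at 1.65, the bile acid receptor targets at -1.34 and the coregulators at 0.31.

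The ITGA8+ and ITGA8- arrays were set side by side to see which receptors go with integrin alpha 8. Nr1h4, the PPAR delta gene Ppard and, in the probe set used, Thra were higher in ITGA8+ cells, and Nr0b1 was higher in ITGA8- cells. Of the 29 members that passed the floor here, 3 had at least 2-fold more signal in ITGA8+, or 10.3%, where 5.38% of all 13872 genes were, and 1 was higher in ITGA8-, or 3.45%, where 5.998% were. These are few genes, and the shares are near those of all genes. The median absolute difference was 0.41 for the members and 0.40 for all genes.

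Nr1h4, at 720 against 120, had a difference of 2.44, or 5.41-fold. No other probe set of it was on the array. Ppard, a broadly expressed fatty acid sensor known in stellate cells, was at 53 in liver and 135 in ALCAM+, then 129 in PDPN+ against 145 in PDPN- and 997 in ITGA8+ against 328 in ITGA8-. It was high only in the ITGA8 sort, and ITGA8+ minus ITGA8- was 1.56. Thra was at 6789 against 2793 (1.28) in the probe set used, but its 2 other probe sets gave -0.58 and -0.92. Its direction in this pair therefore depends on the probe set. Nr0b1, at 184 against 389, was just past 2-fold (-1.02) and Nr5a2, at 1773 against 890, just within it (0.98). The other 25 members ranged from -0.88 for Nr3c1 to 0.98 for Nr5a2.

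Of the bile acid receptor targets 0 of 5 above the floor were past 2-fold in this pair (median 0.32), although Nr1h4 was. Neither were any of 10 PPAR targets, with Fabp4 (-0.99) and Cpt1a (0.97) closest. Of 14 retinoic acid genes 1 was higher in ITGA8-, where 5.998% of all genes were, namely the retinol importer Stra6 (147 against 713, -2.16). The exporter Abcc2 (1.28) and the lipogenic factor Srebf1 (1.17) were higher in ITGA8+, and Abcg1 (-1.10) and Apoe (-1.05) in ITGA8-. Of 10 stellate markers 6 were 2-fold higher in ITGA8+ (summed intensity 39834 against 20935), including the retinol-esterifying enzyme gene Lrat (2.01). Between PDPN+ and PDPN- that list was split, with 2 of 10 higher in PDPN+ (Ecm1 1.66, Hand2 1.52) and 2 in PDPN- (Lrat -3.30, Ngfr -1.41). Of 11 mesothelial markers 10 were higher in ITGA8- (43015 against 16330), and 7 of 8 megakaryocyte markers were higher in ITGA8+ (34304 against 14754), as were 3 of the 4 macrophage markers above the floor (1847 against 872). No hepatoblast marker of 11 and no erythroid marker of 8 was past 2-fold. The part of these and the other cell types in the receptor differences was not tested.

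The 2 splits share no array. PDPN- and ITGA8+ cells differed in Pdpn itself (117 against 4658), so they are not the same population. Over the 12801 genes above the floor in both, 0.789% were 2-fold higher in both PDPN- and ITGA8+, and among the 25 members this was 1, Nr1h4. Higher in both PDPN+ and ITGA8- were 2.50% of genes and 1 member, Nr0b1. Higher in both PDPN+ and ITGA8+ were 1.10% of genes and 1 member, Thra, in the probe set used.

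**Figure D4:**
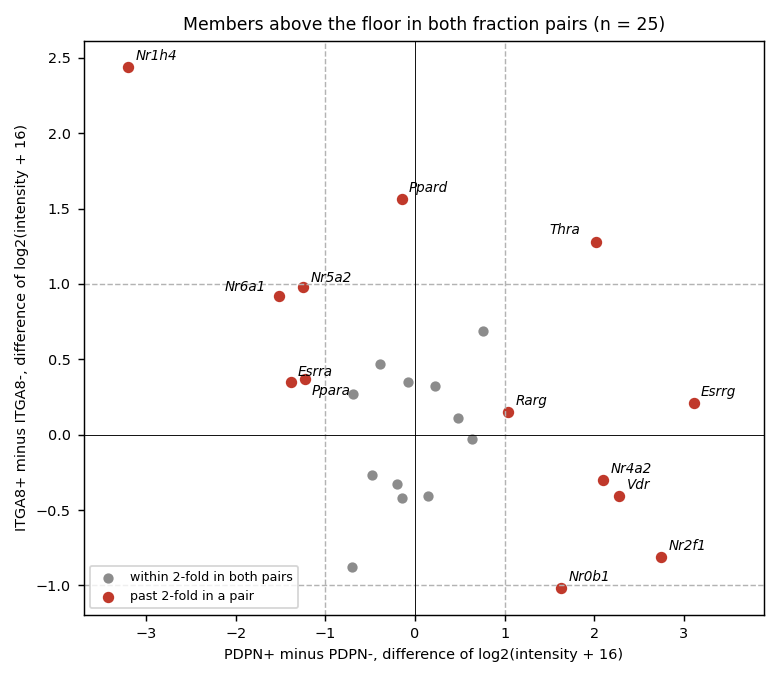
Differences of the 25 members above the floor in both fraction pairs, PDPN+ minus PDPN- on the x axis and ITGA8+ minus ITGA8- on the y axis, in log2(intensity + 16), with 2-fold dashed and members past it in red. Nr1h4 lies alone at -3.20 and 2.44, and most other members spread along the x axis.

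The ALCAM+ array was set against the liver array to see which receptors the ALCAM sort enriched. The COUP-TF genes Nr2f1 and Nr2f2, Thra and Vdr were higher in ALCAM+ cells, and no member above the floor was 2-fold lower. The median of all genes above the floor was shifted by 0.90 on the log2 scale, or 1.87-fold, and differences are given relative to it. Of 18 members above the floor 4 were 2-fold higher, or 22.2%, where 15.4% of all 10957 genes were, and 0 were lower, where 11.2% were. As deposited, without the shift, 13 members were higher, where 45.5% of genes were, and 0 were lower, where 2.55% were. The median over members was 0.38, against 0 by construction for all genes.

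Nr2f1, at 497 against 26, was 6.54-fold higher relative to the shift (2.71). Nr2f2, at 4615 against 823, had 1.56, with 1.05 and 1.51 in the other probe sets above the floor. Both COUP-TF genes were thus higher after the ALCAM sort. Thra, at 846 against 139, had 1.57 in the probe set used and 0.03 in the other above the floor. Vdr was at 176 against 28 (1.22). Rarb (0.76), Esrrg (0.66) and Nr2f6 (0.62) came next, and Nr3c1 was lowest at -0.80. Nr1h4 (103 against 32), Nr1i2, Nr1i3 and Ppara were at or below the floor in both arrays.

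In the same pair, 8 of 12 retinoic acid genes above the floor were higher in ALCAM+ and 0 lower (median 1.41), led by Aldh1a2 (3.70) and the homeobox gene Meis2 (2.50). The list counts here stand beside 15.4% of all genes higher and 11.2% lower. Of 19 coregulators 2 were higher, among them Ncoa1 (1.37), and 4 lower, with Ncoa4, also a ferritin receptor of red cell precursors, at -1.89. Clock genes had 4 of 10 higher, including Nfil3 (1.32). The summed intensities that follow are as deposited, without the shift, while the counts are relative to it. Mesothelial markers were higher in 9 of 9 above the floor (summed intensity 12799 against 531) and erythroid markers lower in 7 of 8 (11138 against 29798). Megakaryocyte markers were higher in 6 of 8 (23911 against 6609) and stellate markers in 6 of 7 (5542 against 1081). Macrophage markers were higher in 3 of 8 (8359 against 2718), with a median of 0.3 relative to the shift. Endothelial markers were higher in 1 of 6 (3568 against 1557), with a median of 0.33, while 0 of 9 hepatoblast markers were past 2-fold. Their part in these differences was not tested. With a shift taken over all genes, 7 members were higher. With the median of a gene's probe sets only Nr2f1 was.

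**Figure D5:**
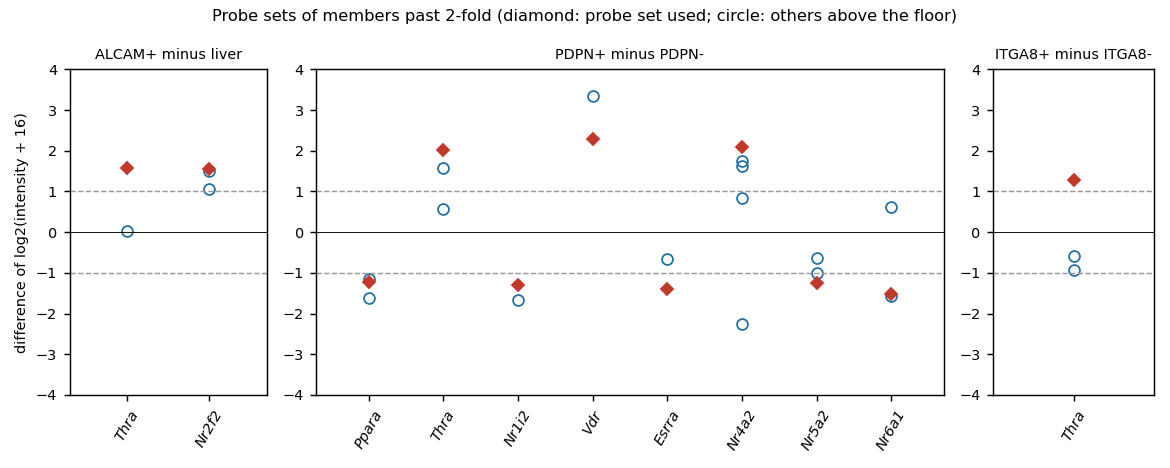
Differences of log2(intensity + 16) in every probe set above the floor for members past 2-fold that have several, by pair; diamonds are the probe sets used and circles the others, and ALCAM+ minus liver is relative to the shift. The circles of Thra in ITGA8+ minus ITGA8- lie on the other side of 0, at -0.58 and -0.92.

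Several probe sets per gene give the only repeat measurement within these arrays. Of the 18 members past 2-fold between PDPN+ and PDPN-, 8 had other probe sets above the floor. In 6 of these 8 all others had the same direction, the exceptions being Nr4a2 and Nr6a1, and in 6 at least 1 other was also past 2-fold. The exceptions to that were Esrra and Nr5a2, the latter just within it. Between ALCAM+ and liver 2 of the 4 members had others, with the same direction in both, and between ITGA8+ and ITGA8- only Thra had.

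Several receptors differed between the sorts. In this comparison, added after the values were seen, both PDPN sort arrays were set against both ITGA8 sort arrays, with at least 2-fold between the nearest pair. Nr1h3 was at 670 and 1094 against 118 and 95, and Rora, an activator of clock genes, at 1439 and 1298 against 262 and 354. These 2 of 35 members, or 5.71%, stand beside 2.94% of all genes. Ppard (129 and 145 against 997 and 328), Rxrg (57 and 6 against 409 and 270) and Esr1, the estrogen receptor alpha gene (54 and 90 against 202 and 227), were higher in the ITGA8 sort, 8.57% of members beside 5.25% of genes. These shares are near those of all genes. The sorts were separate samples, and what else differed between them cannot be told apart from the markers used. Erythroid markers summed to 43462 in ITGA8+ and 31896 in ITGA8-, against 7119 in PDPN+ and 3720 in PDPN-. The part of erythroid cells in these receptor differences was not tested.

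In the probe sets used, the remaining members were within 2-fold in each pair where they exceeded the floor. Nr2c2 (TR4), a testicular orphan receptor, was at 728 in liver and 1649 in ALCAM+, then 4053 in PDPN+ against 2395 in PDPN- and 7211 in ITGA8+ against 4462 in ITGA8-, with differences of 0.76 and 0.69 in the fraction pairs. In ALCAM+ minus liver the probe set used gave 0.26 and another was past 2-fold toward liver (-1.11). Its relative Nr2c1 (TR2) was at 862 and 915 in the PDPN sort and 640 and 500 in the ITGA8 sort, where another probe set was past 2-fold (1.03). Nr1d2 (REV-ERB beta), a repressor of the clock, was at 201 in liver and 350 in ALCAM+, then 1036 in PDPN+ against 1453 in PDPN- and 1031 in ITGA8+ against 1243 in ITGA8-. Nr1d1 (REV-ERB alpha) exceeded the floor only in ITGA8-, at 113. Of 13 clock genes above the floor in the PDPN pair, 2 were higher in PDPN+, Dbp (1.10) and Per1 (1.03), where 19.9% of all genes were. Toward PDPN- there were 3, where 7.93% of all genes were, with Arntl, which REV-ERB is known to repress, at -1.18. Nr2e1 (TLX), a factor of neural stem cells, passed the floor only in ITGA8+, at 150.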

How the data were processed

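RNA from 6 samples, 20 ng each, was amplified, biotin labelled and hybridised to 1 array per group, per the labels' protocols. Each deposited value is a probe set's intensity, linear and rounded to an integer. RMA and Partek were used per the submitters' processing notes, which state neither role nor version. The 4 fraction arrays leave 64 control probe sets blank. Values were transformed to log2(intensity + 16). Of 45101 probe sets, 38011 named 1 gene, and 92.11% of these took their symbol from RefSeq (GRCm38.p6) by Entrez identifier. The 2 probe sets that name a member and another gene were not used. A gene counted as different at 2-fold where its higher array exceeded 109.0.

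The rule for members is by symbol alone, but this gene family and the gene lists were chosen with earlier results of these data known. Members were named where they passed 2-fold or were among the brightest, and list genes by largest difference. The shift of ALCAM+ minus liver was the median over genes above the floor, where the written design took it over all genes, and the shift over all genes was added after seeing the data as an alternative. Motifs were searched on both strands in the 250 bases before each RefSeq start. Each pair was recomputed under 13 alternatives with Python 3.11.15 and pandas 2.3.3, with the calculation tested on simulated data. The number of arrays limits the precision. Of the lists' genes Cyp4a10, Fgf21 and Ugt1a1 had no probe set of their own. Some list genes are counted but not reported here by name.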

Additional observations from a re-analysis of the deposited data

How the results depend on the processing

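No paired analysis was possible because each group had 1 array, and no array could be left out. Beside other fold thresholds, 9 of the 18 named members kept direction and call in every setting for PDPN+ minus PDPN-. This held for 1 of 4 in ALCAM+ minus liver and 1 of 4 in ITGA8+ minus ITGA8-. By member and setting combination, 176 of 198 were kept for PDPN+ minus PDPN-, 43 of 48 for ALCAM+ minus liver and 39 of 44 for ITGA8+ minus ITGA8-. These combinations include the setting with no floor, which could not undo a call. In the fraction pairs, choosing the probe set by the pair's mean or by name suffix left the named members' values unchanged. Nr1h4 kept its call under each setting, from -3.47 to -2.75 between PDPN+ and PDPN- and from 2.09 to 2.59 between ITGA8+ and ITGA8-. The median of all probe sets, which includes dim ones, reversed Rarg (-0.33) and Nr6a1 (0.53) in PDPN+ minus PDPN- and Thra (-0.92) in ITGA8+ minus ITGA8-.

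Of the counts, the 4 members higher in ALCAM+ became 1 with the median of all probe sets, 13 as deposited, 7 with quantile normalisation, 7 with the shift over all genes, 7 at 1.5-fold and 1 at 4-fold. The 0 lower became 5 with no floor, 2 with the floor of the arrays sharing a scale (52.0), 3 with quantile normalisation and 1 at 1.5-fold. The 8 members higher in PDPN+ became 4 with the median of all probe sets and 5 at 4-fold. The 10 lower became 7 with the median of all probe sets and 2 at 4-fold. The 3 members higher in ITGA8+ became 1 with the median of all probe sets, 5 with quantile normalisation, 5 with loess, 7 at 1.5-fold and 1 at 4-fold. The 1 lower became 0 with a pseudocount of 64, 0 with quantile normalisation, 0 with loess, 4 at 1.5-fold and 0 at 4-fold. Fewer or more genes pass a changed floor or fold by construction; for the others the cause was not tested. Where the lower array is near 0, the size of a fold depends on the pseudocount.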
